A study of Danio rerio with 2 samples.

Results

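The genes described here are 8 of the 25434 features counted in the series, chosen by symbol, and every symbol matched 1 Ensembl gene. They are the chemokine receptors *cxcr4a* (ENSDARG00000057633), *cxcr4b* (ENSDARG00000041959) and *ackr3b* (ENSDARG00000058179), the chemokines *cxcl12a* (ENSDARG00000037116), *cxcl12b* (ENSDARG00000055100), *ccl25b* (ENSDARG00000070873) and *ccl44* (ENSDARG00000074772), and the cytokine gene *csf1b* (ENSDARG00000068263). Their levels were followed through the cranial neural crest cell (NCC) populations and blood cells of zebrafish embryos, with and without an inhibitor of Gq/11. Gq/11 is the G protein α subunit family that couples many receptors to phospholipase C.

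Cells came from *Tg(sox10:mRFP)*;*Tg(fli1a:EGFP)* embryos, in which NCCs carry a red and a green reporter, and cells positive for both were sorted from pooled heads at 36 hpf. The DMSO library came from embryos kept in the solvent, and the YM library from embryos kept between 16 and 36 hpf in YM-254890 (YM) at 100 µM, which inhibits Gq/11. The study proposes that in wild-type embryos this inhibition is only partial. All embryos carried both transgenes, the labels name no other allele, and *fli1a* reporters also mark endothelial and some blood cells. Each condition is 1 library from 1 pool of embryos, so no difference between conditions has a replicate check and no test between conditions was made. The intervals below are 95% intervals for counting error only, since unique molecular identifiers (UMIs) of 1 pool share that pool. After cell calling and filtering, 3613 DMSO cells with a median of 5866 UMIs and 4429 YM cells with a median of 6527 UMIs were kept, and 5 barcodes were kept in both libraries.

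Cxcl12 is a secreted chemokine that binds 2 receptors. Cxcr4, a receptor that couples mainly to Gi proteins, steers cell migration along Cxcl12, whereas Ackr3 takes up Cxcl12 and clears it from tissue, with signalling through arrestin rather than G proteins. Zebrafish keep duplicates of these genes. There, Cxcr4b and Cxcl12a guide germ cells and the lateral line primordium, and Cxcr4a and Cxcl12b have roles in vessels and in cranial NCC migration. Ccl25 is the ligand of Ccr9 and attracts lymphoid progenitors to the thymus, and Csf1 is a ligand of Csf1r, the receptor on which macrophages and some pigment cells depend.

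The kept cells formed 17 clusters, of which 10 held 95.9% of DMSO and 96.3% of YM cells and took a crest name from fixed markers. The 8 genes were kept out of the genes used for clustering. *twist1a*, *prrx1b* and *fli1a*, expressed in cranial NCCs, were detected in each of the 6 crest classes in both libraries. These classes are frontonasal-like (771 DMSO and 1056 YM cells), dorsal arch 1-like (886 and 1052), dorsal arch 2-like (378 and 655), ventral arch-like (718 and 668, with cells of arches 1 and 2), posterior arch-like (429 and 545) and *gata3*-positive-like (282 and 288). Blood cells were few, with 11 and 16 erythroid-like, 31 and 21 neutrophil-like and 29 and 28 macrophage-like cells. Levels are given in CPM, the UMIs of a gene scaled to the total UMIs of the class. *dlx2a*, used by the study to mark arches 1 and 2, was low in frontonasal-like cells (7.17 CPM in DMSO, 6.44 CPM in YM). It was also low in *gata3*-positive-like cells (12.5 and 15.21 CPM), against 23.8 and 21.0 CPM in epidermal-like cells. In the other crest classes it lay between 98.4 and 271 CPM. Neutrophil-like cells held *fli1a* at 95.5 and 134 CPM, and cells were sorted on its reporter, so its detection alone does not mark crest. A 3′ tag is read once per molecule, and levels are compared below between classes of 1 gene and not between genes.

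RNA free in the suspension gives some UMIs in cells that do not make them. In barcodes too small to be cells, *cxcr4a* stood at 38.9 CPM in DMSO and 57.8 CPM in YM, *cxcl12a* at 76.3 and 89.0 CPM, *cxcl12b* at 54.7 and 91.9 CPM and *ccl25b* at 40.3 and 53.4 CPM. *ackr3b* stood there at 30.2 CPM (18.7 to 46.2) in DMSO and 8.90 CPM (3.27 to 19.4) in YM. Haemoglobin genes outside erythroid-like cells put the free share at 0.496% of UMIs in DMSO and 0.364% in YM. The DMSO estimate leaves out 1 dorsal arch 1-like cell, which held 1031 of the 1305 haemoglobin UMIs found outside erythroid-like cells and with which it was 2.36%. Erythroid-like cells, which should lack these genes, held 0 UMIs of each member in DMSO, and in YM 3 UMIs of *cxcr4a* (12.97 CPM, 2.67 to 37.9), 2 of *ackr3b* (8.64 CPM, 1.05 to 31.2) and 1 of *cxcl12b*. Their median depth was 14946 UMIs in DMSO and 13175.5 in YM, above that of each crest class. The YM erythroid-like cells also held 6 UMIs of *prrx1b*, 8 of *twist1a* and 5 of *fli1a*, against 0 of each in DMSO. The part of free RNA and of doublets in the YM UMIs was not tested. With so few cells the background taken from erythroid-like cells is loosely bounded. Levels inside these intervals, such as those of *cxcr4a* in frontonasal-like, posterior arch-like and DMSO ventral arch-like cells, are not set apart from it. The same holds for *ackr3b* in the crest classes other than frontonasal-like. Of these, only DMSO posterior arch-like cells, at 24.6 CPM (19.6 to 30.5), lay just over the DMSO bound of 24.4 CPM.

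*cxcr4a* was highest in the dorsal arch 2-like, *gata3*-positive-like and dorsal arch 1-like cells and low in ventral, frontonasal and posterior cells of the DMSO library. In DMSO its level was 131 CPM (116 to 146) in dorsal arch 2-like, 123 CPM (105 to 143) in *gata3*-positive-like cells, and dorsal arch 1-like cells held 88.7 CPM (80.6 to 97.5). The first pair of these overlap in their intervals, and dorsal arch 1-like cells lie below both. Frontonasal-like cells followed at 24.2 CPM (19.5 to 29.7), ventral arch-like cells at 17.5 CPM (14.2 to 21.5) and posterior arch-like cells at 11.9 CPM (8.47 to 16.1), each overlapping its neighbour. In YM the upper classes again led, with 157 CPM for dorsal arch 2-like, 143 CPM for *gata3*-positive-like and 132 CPM for dorsal arch 1-like cells, each overlapping its neighbour. Below them ventral arch-like cells now stood at 59.3 CPM (53.2 to 66.0), over frontonasal-like cells at 18.1 CPM and posterior arch-like cells at 13.2 CPM. Both dorsal arch 2-like clusters held the gene at like levels, 136 and 124 CPM in DMSO and 157 CPM each in YM. The frontonasal clusters differed, with 35.0 and 24.4 CPM in the cluster led by *pitx3*, a homeobox gene of eye development, against 4.49 and 8.21 CPM in the cluster with *zic2a*. Neutrophil-like cells held 3 and 2 UMIs, macrophage-like cells 1 and 0, and epidermal-like cells 12 UMIs in each library (40.8 and 50.3 CPM).

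*cxcr4b*, the other Cxcr4 receptor gene, was highest in neutrophil-like cells and, among crest classes, in dorsal arch 2-like cells. It stood at 81.3 CPM (51.6 to 122) in DMSO and 134 CPM (86.1 to 200) in YM neutrophil-like cells, from 23 and 24 UMIs, and at 21.0 and 50.7 CPM in macrophage-like cells, from 5 and 14 UMIs. Epidermal-like cells held 30.6 and 12.58 CPM, from 9 and 3 UMIs. Among crest classes, dorsal arch 2-like cells held 21.0 CPM (15.6 to 27.8) in DMSO and 33.9 CPM (28.8 to 39.7) in YM. The other 5 crest classes lay between 0.296 and 3.77 CPM in DMSO and between 1.25 and 6.25 CPM in YM, so that their intervals ended below the dorsal arch 2-like one in each library. Neutrophil-like cells held *cxcr4b* but hardly *cxcr4a*, and dorsal arch 2-like cells held both. Neutrophil markers were at 27.1 CPM in DMSO and 8.70 CPM in YM dorsal arch 2-like cells over the whole list, against 149482 and 157931 CPM in neutrophil-like cells, and macrophage markers had 0 and 2 UMIs.

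*ackr3b*, the scavenging receptor gene, was among crest classes highest in frontonasal-like cells. It was at 101 CPM (91.1 to 112) there in DMSO and at 97.8 CPM (89.8 to 106) in YM, and 21.7% of frontonasal-like cells of each library held a UMI after thinning every cell to 3500 UMIs. Posterior arch-like cells followed at 24.6 and 23.8 CPM, *gata3*-positive-like cells at 21.3 and 13.9 CPM, ventral arch-like cells at 15.09 and 12.1 CPM, dorsal arch 1-like cells at 13.4 and 6.74 CPM and dorsal arch 2-like cells at 4.296 and 5.87 CPM. Among crest classes the dorsal arch 2-like cells, highest for both Cxcr4 genes, were thus lowest for *ackr3b* in each library, although in YM their interval overlapped that of dorsal arch 1-like cells. Blood classes held 0 to 2 UMIs and epidermal-like cells 17.0 and 25.2 CPM, from 5 and 6 UMIs. A small cluster without a name, led by *rbpms2b* and *cdh5*, held 11 UMIs in its 21 DMSO cells, or 119 CPM (59.6 to 213), and 1 UMI in its 36 YM cells.

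**Figure D1:**
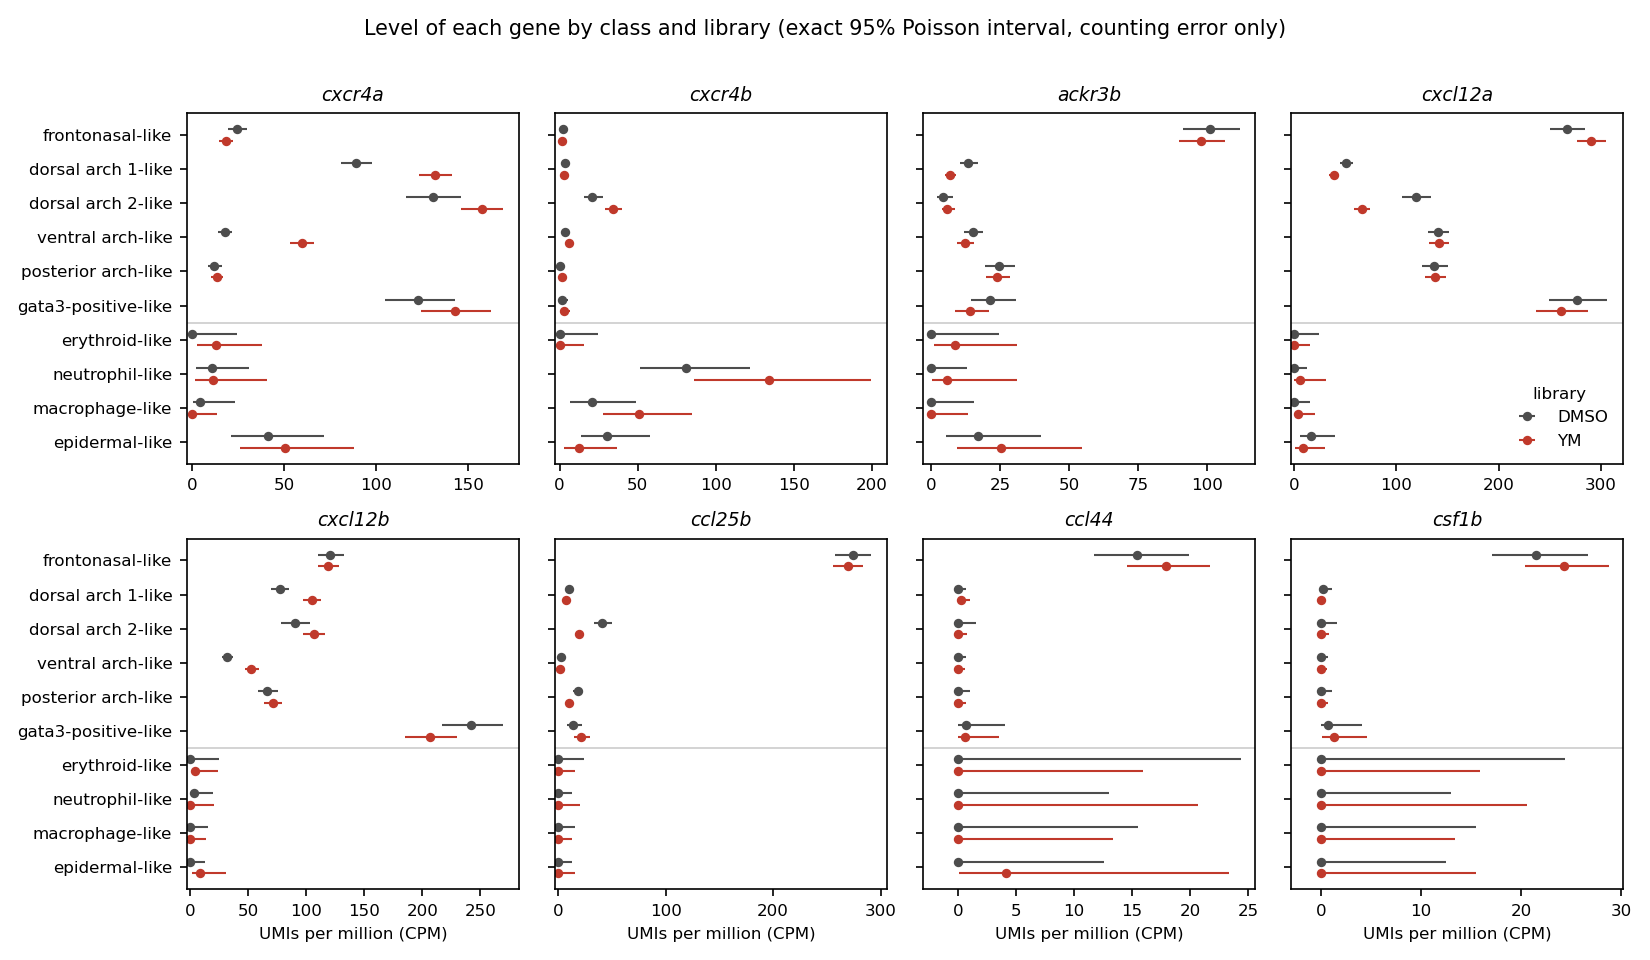
Level of each of the 8 genes in CPM (horizontal axis, linear, its own scale in each panel) in the 6 crest classes and in erythroid-like, neutrophil-like, macrophage-like and epidermal-like cells (vertical axis), for the DMSO and the YM library, with exact Poisson 95% intervals. *cxcr4a* is high in dorsal arch and *gata3*-positive-like cells, *cxcr4b* in neutrophil-like cells at 81.3 and 134 CPM, and *ackr3b*, *ccl25b*, *ccl44* and *csf1b* in frontonasal-like cells.

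*cxcl12a*, a Cxcl12 ligand gene, was detected in each crest class, highest in *gata3*-positive-like and frontonasal-like cells and lowest in dorsal arch 1-like cells. In DMSO, *gata3*-positive-like cells held 277 CPM (250 to 306) and frontonasal-like cells 267 CPM (251 to 284), which overlap. Ventral arch-like, posterior arch-like and dorsal arch 2-like cells followed at 140, 137 and 119 CPM with overlapping neighbours, and dorsal arch 1-like cells stood apart at 50.7 CPM (44.6 to 57.4). In YM the order was frontonasal-like (290 CPM), *gata3*-positive-like (261 CPM), ventral (141 CPM), posterior (138 CPM), dorsal arch 2-like (66.3 CPM) and dorsal arch 1-like cells (38.7 CPM). In ventral arch-like cells the transcript sat with *hand2*, a ventral transcription factor gene. Cells with a *hand2* UMI held 247 CPM in DMSO and 217 CPM in YM after thinning, and those without held 57.5 and 80.7 CPM. Cells with at least 3 of the 14 intermediate domain genes of the study held 48.8 and 53.6 CPM, against 242 and 175 CPM in the other ventral cells. Neutrophil-like and macrophage-like cells held 0 or 1 UMI, and the small cluster without a name held 271 and 238 CPM.

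*cxcl12b*, the duplicate ligand gene, was also highest in *gata3*-positive-like cells, with 242 CPM (217 to 270) in DMSO and 207 CPM (185 to 230) in YM. Frontonasal-like cells held 121 and 119 CPM, dorsal arch 2-like cells 90.2 and 106 CPM, dorsal arch 1-like cells 77.1 and 104 CPM, posterior arch-like cells 66.4 and 71.1 CPM and ventral arch-like cells 31.9 and 52.6 CPM. Ventral arch-like cells were last in both libraries, with an interval below that of each other crest class. Within them the transcript sat away from *hand2*, with 9.80 and 30.7 CPM in cells with a *hand2* UMI and 50.3 and 74.0 CPM in those without. The 2 ligand genes were still detected in the same ventral cells about as often as the product of their shares gives, in 14 cells against 14.5 in DMSO and in 26 against 26.7 in YM. Blood classes held 0 or 1 UMI of *cxcl12b*, and epidermal-like cells 0 and 2.

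*ccl25b*, *ccl44* and *csf1b* were frontonasal genes. *ccl25b*, named as a Ccr9 ligand, stood at 274 CPM (258 to 291) in DMSO and 269 CPM (256 to 283) in YM frontonasal-like cells. The next highest class was dorsal arch 2-like in DMSO (41.2 CPM, and 19.8 CPM in YM) and *gata3*-positive-like in YM (20.9 CPM). After thinning, 31.2% of DMSO and 28.7% of YM frontonasal-like cells held a UMI, with 3.34 and 3.22 UMIs per positive cell. In dorsal arch 2-like cells the transcript lay in few cells with many UMIs. There, 9 of 378 DMSO cells held all 96 UMIs, 65 of them in 3 cells, and 16 of 655 YM cells held all 91 UMIs, 48 of them in 3 cells. Posterior arch-like cells were alike, with 62 UMIs in 12 DMSO cells and 51 UMIs in 12 YM cells. The frontonasal marker list was at 287 CPM in the *ccl25b*-positive dorsal arch 2-like cells of each library, against 145 CPM in DMSO and 138 CPM in YM in the negative ones and 5323 and 5260 CPM in frontonasal-like cells. The value in the positive cells rests on only 12 UMIs of the list in DMSO and 33 UMIs in YM. In *ccl25b*-positive posterior arch-like cells the list was at 373 CPM (30 UMIs) in DMSO and 474 CPM (53 UMIs) in YM. The negative posterior arch-like cells held 98.7 and 114 CPM. Ventral arch-like cells differed in direction between the libraries. Their positive cells held 86.1 CPM (4 UMIs) in DMSO and 1093 CPM (45 UMIs) in YM, and their negative cells 94.0 and 120 CPM. The part of frontonasal RNA in these cells was not tested.

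*ccl44*, a CC chemokine by its name, had 58 UMIs (15.41 CPM) in DMSO and 100 UMIs (17.9 CPM) in YM frontonasal-like cells and between 0 and 2 UMIs in each other crest class and blood class. *csf1b*, a Csf1 gene, had 81 UMIs (21.5 CPM) and 136 UMIs (24.3 CPM) there and likewise between 0 and 2 UMIs in each of these other classes. In ventral arch-like, dorsal arch 2-like and posterior arch-like cells both genes had 0 UMIs in both libraries, and the count of 0 allows at most 0.566 CPM in the DMSO and 0.521 CPM in the YM ventral arch-like cells. The frontonasal clusters divided these genes. *csf1b* stood at 58.4 CPM in DMSO and 60.2 CPM in YM in the cluster with *zic2a*, where it was among the leading genes, and at 1.24 and 1.18 CPM in the *pitx3*-led cluster. *ccl44* stood at 30.7 and 26.9 CPM in the cluster with *zic2a* and at 7.00 and 12.1 CPM in the *pitx3*-led one. *ackr3b* had the reverse pattern, with 65.2 and 52.9 CPM in the cluster with *zic2a* and 121 and 127 CPM in the *pitx3*-led one. *ccl25b* was high in both clusters, at 232 and 244 CPM with *zic2a* and 297 and 286 CPM with *pitx3*.

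**Figure D2:**
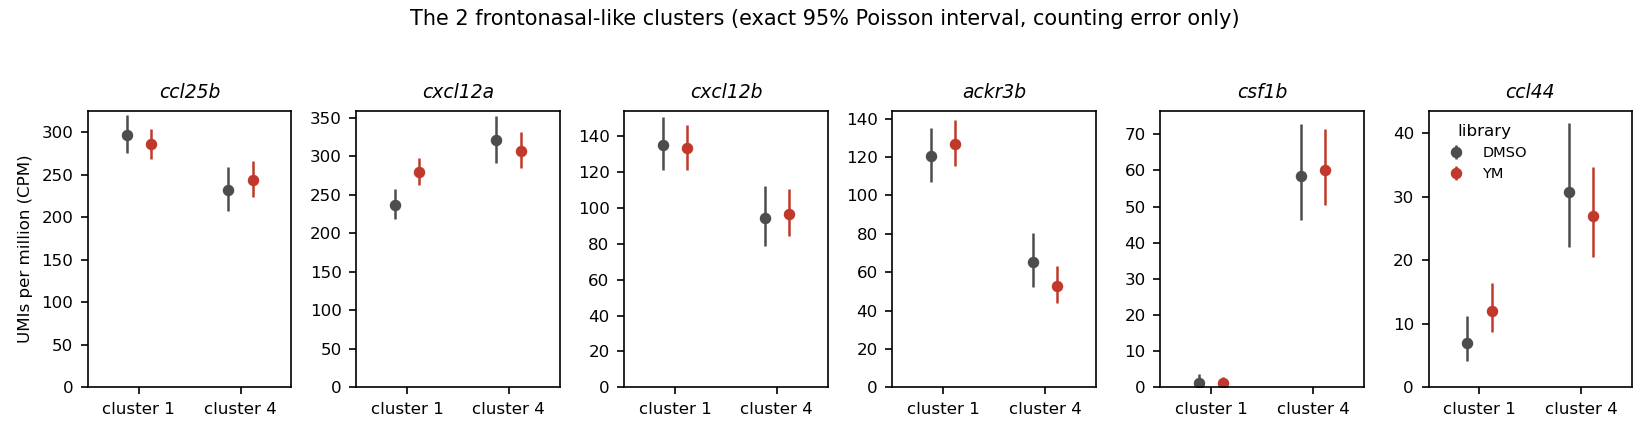
Level in CPM (vertical axis) of 6 of the genes in the 2 frontonasal-like clusters, cluster 1 led by *pitx3* and cluster 4 with *zic2a* and *cldn11a*, in the DMSO and the YM library, with exact Poisson 95% intervals. *csf1b* and *ccl44* are higher in the cluster with *zic2a*, *ackr3b* is higher in the *pitx3*-led cluster, and the direction is the same in both libraries.

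YM against DMSO was compared within each class, which addresses how the genes stood under YM. Since the study proposes that the inhibition was partial, a ratio near 0 does not tell whether a gene depends on Gq/11. Ratios were read where a gene had at least 40 UMIs over both libraries in the class, which gave 32 ratios of members over the 6 crest classes. Of these, 4 were past 1.5-fold higher in YM and 5 past 1.5-fold lower. In ventral arch-like cells 3 of 5 members were past 1.5-fold higher, against 3.03% of 8023 genes, and 0 past 1.5-fold lower, against 4.08%. In dorsal arch 2-like cells 1 of 5 was past 1.5-fold higher, against 3.86% of 6678 genes, and 2 lower, against 4.36%. Of the 7 members read in frontonasal-like cells, 0 were past 1.5-fold in either direction, against 2.62% of 8158 genes higher and 3.8% lower. In dorsal arch 1-like, posterior arch-like and *gata3*-positive-like cells 1 of 5 members each was past 1.5-fold lower, against 3.71%, 4.36% and 5.66% of genes, and 0 of 5 higher, against 2.72%, 3.14% and 3.3%. A gene with few UMIs passes this threshold by counting error more easily than one with many, and the members were chosen with earlier results of these data known. The median log2 ratio of the members was 0.72 in ventral arch-like, 0.24 in dorsal arch 2-like, 0.01 in posterior arch-like, −0.02 in frontonasal-like, −0.08 in *gata3*-positive-like and −0.39 in dorsal arch 1-like cells, whereas that of all genes lay between −0.06 and −0.02.

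**Figure D3:**
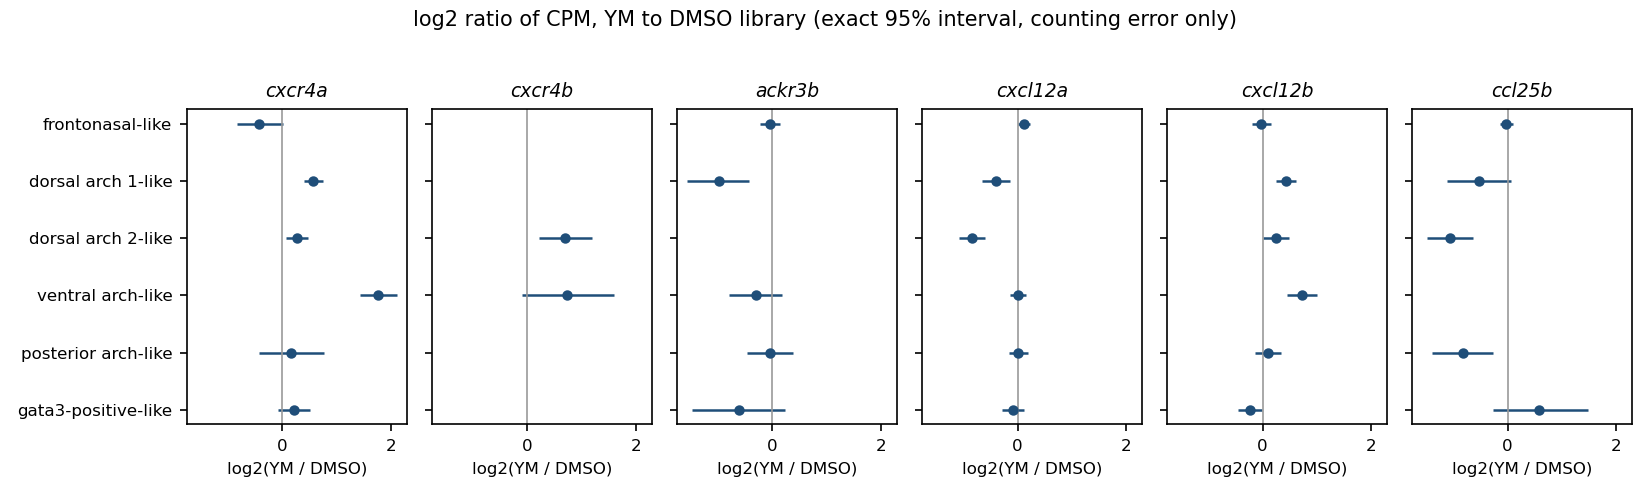
Log2 ratio of YM to DMSO (horizontal axis, 0 is no difference) of 6 genes in the 6 crest classes (vertical axis) where the gene had at least 40 UMIs, with exact conditional binomial 95% intervals that cover counting error only. *cxcr4a* is highest in ventral arch-like cells at 1.76 and *cxcl12a* lowest in dorsal arch 2-like cells at −0.84, while *cxcl12a* and *cxcl12b* lie on opposite sides of 0 in both dorsal arch classes. The *cxcl12a* value in dorsal arch 1-like cells changed sign under some alternatives of the processing.

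*cxcr4a* was higher in YM in ventral arch-like and in both dorsal arch classes, with the smallest difference in dorsal arch 2-like cells. In ventral arch-like cells it had 93 UMIs in DMSO and 342 UMIs in YM, or 17.5 and 59.3 CPM, which is 3.38-fold (2.68 to 4.303) and a log2 ratio of 1.76 (1.42 to 2.11). The DMSO level lies under the upper bound of 24.4 CPM in the DMSO erythroid-like cells. Subtraction of free RNA gave a log2 ratio of 1.80. With the small free shares given above it could move the ratio only slightly, and it does not address that bound. In dorsal arch 1-like cells *cxcr4a* had 436 and 881 UMIs, or 88.7 and 132 CPM, a log2 ratio of 0.57 (0.41 to 0.74). Thinned *hand2*-negative cells there had 0.42 (0.19 to 0.66), and *hand2*-positive cells 3.15 (1.39 to 5.55) from 3 and 19 UMIs. Cells with a *hand2* UMI made up 18.8% in DMSO and 10.8% in YM, and the part of this in the ratio was not tested. In dorsal arch 2-like cells *cxcr4a* had 304 and 723 UMIs, or 131 and 157 CPM, a log2 ratio of 0.27 (0.07 to 0.47). Thinned *hand2*-negative cells there had 0.17 (−0.10 to 0.44), an interval that reaches 0. Cells with under 3 intermediate domain genes had 0.02 (−0.26 to 0.31) and the others 0.86 (0.01 to 1.76). The intervals of the *gata3*-positive-like ratio of 0.22 (−0.08 to 0.52), the posterior arch-like ratio of 0.16 and the frontonasal-like ratio of −0.42 (−0.84 to 0.00) reached 0. Over all crest-like cells the log2 ratio was 0.58 (0.48 to 0.68). *cxcr4a* is among the genes the study listed as changed in its ventral arch cluster from these same libraries, so its direction here is not independent evidence. The ventral value moved with how the class was drawn, to 2.28 where all variable genes were used for clustering.

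The ventral difference was seen in the number of positive cells. After thinning, 34 of 697 DMSO cells (4.88%, 3.40 to 6.75) and 90 of 655 YM cells (13.7%, 11.2 to 16.6) held a *cxcr4a* UMI, and unthinned the shares were 8.22% and 27.1%. The share in erythroid-like cells was 0 of 11 in DMSO, which allows up to 28.5%, and 1 of 16 in YM, too few cells to set a background. *cxcr4a* was higher in YM in both ventral clusters, at 22.7 CPM in DMSO and 70.8 CPM in YM in one and at 9.31 and 40.2 CPM in the other. It was also higher on each side of each split of the class. Among the cells with a UMI of *hoxa2b* or *hoxb2a*, Hox genes that mark arch 2, 2.35% were positive in DMSO and 9.12% in YM, and among those without 7.28% and 18.4%. Positive cells held few UMIs each in both libraries. Those with a Hox UMI held 8 UMIs in 8 DMSO cells and 40 in 30 YM cells. Those without held 34 UMIs in 26 DMSO cells and 82 in 60 YM cells. Cells with a *hand2* UMI had 2.64% and 7.34%, and cells without had 7.55% and 21.3%. Cells with at least 3 intermediate domain genes had 3.41% and 20.5%, a log2 ratio of levels of 2.76 (1.75 to 3.85), and the other cells had 5.94% and 12.3%, a log2 ratio of 1.17. The class itself held fewer cells with 3 or more intermediate domain genes in YM, 17.1% against 42.04%, and about the same share with *hand2*, 54.0% against 54.4%.

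**Figure D4:**
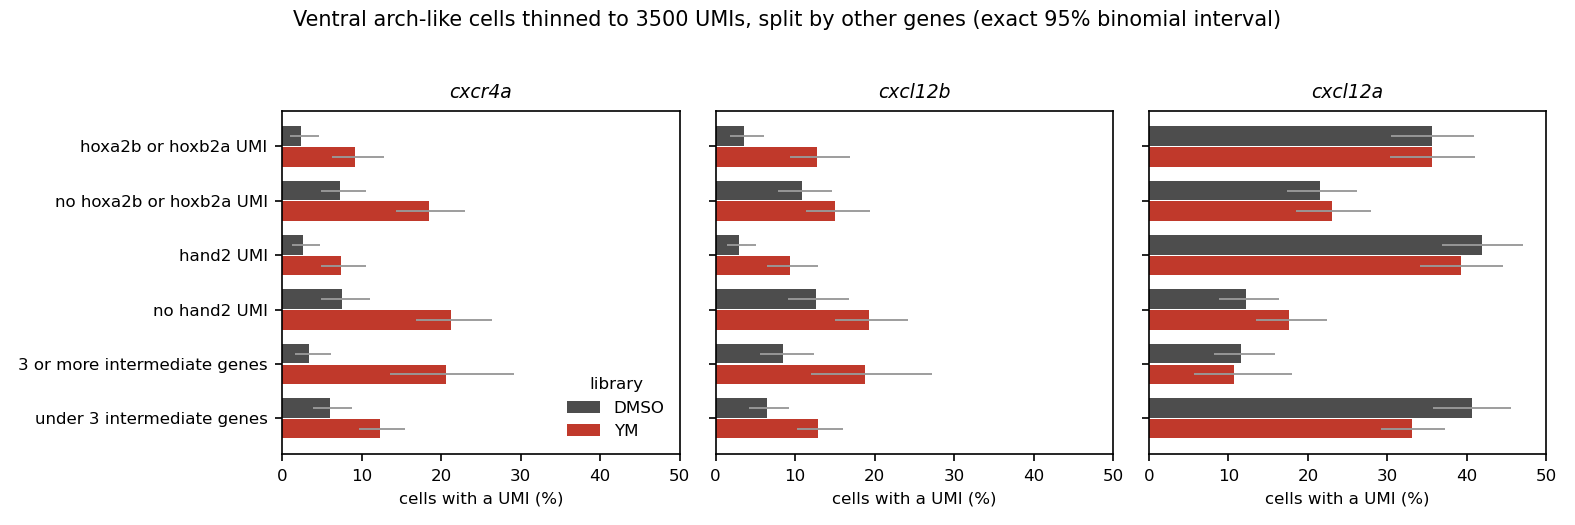
Percentage of thinned ventral arch-like cells with a UMI of *cxcr4a*, *cxcl12b* or *cxcl12a* (horizontal axis, from 0), split by UMIs of *hoxa2b* or *hoxb2a*, of *hand2*, and by the number of 14 intermediate domain genes detected, with exact binomial 95% intervals. The YM bar of *cxcr4a* is the longer one on each side of each split, for example 21.3% against 7.55% in cells without *hand2*, and *cxcl12a* is concentrated in cells with *hand2*.

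For some genes, ventral cells with *cxcr4a* differed from those without in the same direction in both libraries. Cells with a *cxcr4a* UMI held *hand2* less often, 29.4% against 55.7% in DMSO and 28.9% against 58.1% in YM. They also held *barx1*, a homeobox gene of arch cartilage precursors, less often, 20.6% against 58.1% and 27.8% against 43.7%. They held *jag1b*, a Notch ligand gene of the dorsal arches, more often, 29.4% against 7.84% and 31.1% against 14.3%. The dorsal genes *nr2f5* (38.2% against 27.1% and 45.6% against 32.2%) and *pou3f3b* (17.6% against 6.49% and 10.0% against 7.61%) went the same way. For both, the intervals of the 34 DMSO and 90 YM cells with *cxcr4a* overlapped those of the cells without. Other dorsal genes did not. *hey1* was in 29.4% against 19.0% in DMSO but in 26.7% against 29.0% in YM. *her6*, *her9*, *lhx6* and *lhx8a* likewise differed in direction between the libraries. For *hey1* and these genes, too, the intervals overlapped in both libraries. *cxcl12b* went with *cxcr4a* likewise, 32.4% against 6.03% and 25.6% against 12.04%. *dlx5a*, a ventral homeobox gene, was in 17.6% against 57.8% of DMSO cells and in 30.0% against 47.1% of YM cells.

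Other features of the ventral cells differed between the libraries as well. The 8 ventral arch markers summed to 2206 CPM in DMSO and 1155 CPM in YM, and the 7 dorsal arch 1 markers to 574 and 419 CPM. The 8 dorsal arch 2 markers were higher in YM, at 536 and 604 CPM. So were the 11 frontonasal markers, at 93.9 and 127 CPM, and the 7 *gata3*-positive markers, at 57.7 and 78.6 CPM. A set of 14 immediate early genes, which respond to handling and stress among other stimuli, summed to 345 and 463 CPM. The median UMIs per ventral cell were 7132 and 8256.5, and the median mitochondrial share was 1.36% and 1.22%. The immediate early genes were also higher in the other crest classes, by 0.29 to 0.49 on the log2 scale. The part of these features in the *cxcr4a* result was not tested. In *hand2*-positive ventral cells *cxcr4a* had 10 thinned UMIs (7.54 CPM) in DMSO and 32 (25.8 CPM) in YM, a log2 ratio of 1.78 (0.72 to 2.97).

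Dorsal arch 1-like cells differed in other lists too. The 8 ventral arch markers summed to 1277 CPM in DMSO and 657 CPM in YM. Of 9 epidermal markers 4 were detected in each library, at 3.05 and 25.9 CPM, while epidermal-like cells held *cxcr4a* at the levels given above. Of 5 glial and early crest markers 2 were detected in DMSO and 3 in YM, at 9.97 and 3.90 CPM. Their part in the dorsal arch 1-like ratios of any member was not tested.

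*cxcr4b* was higher in YM in dorsal arch 2-like cells, with 49 UMIs (21.0 CPM) in DMSO and 156 UMIs (33.9 CPM) in YM, a log2 ratio of 0.69 (0.22 to 1.18). Both clusters of the class had the higher YM value, 23.8 and 33.9 CPM in one and 17.8 and 34.0 CPM in the other. After thinning, 6.11% of DMSO and 8.92% of YM cells held a UMI. In the *hand2*-negative cells, most of the class, the shares were 6.30% (3.99 to 9.39) and 8.93% (6.80 to 11.5), which overlap. The thinned log2 ratio in them was 0.58 (−0.10 to 1.31), an interval that reaches 0. *cxcr4b* in ventral arch-like cells had 20 and 36 UMIs, a log2 ratio of 0.73 (−0.10 to 1.59), and in neutrophil-like cells 23 and 24 UMIs, a log2 ratio of 0.72 (−0.16 to 1.61), both with intervals that reach 0. Since *cxcr4b* was among the leading genes of both dorsal arch 2-like clusters, its level there describes them.

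*ackr3b* differed little in the class that held most of it. In frontonasal-like cells it had 380 UMIs (101 CPM) in DMSO and 547 UMIs (97.8 CPM) in YM, a log2 ratio of −0.05 (−0.24 to 0.15). It was lower in YM in dorsal arch 1-like cells, with 66 UMIs (13.4 CPM) and 45 UMIs (6.74 CPM), a log2 ratio of −0.99 (−1.57 to −0.43). That direction reversed to 0.85 at a finer clustering (resolution 1.2), which left part of the dorsal arch 1 cells without a name. Both dorsal arch 1-like levels also lie inside the intervals of *ackr3b* in erythroid-like cells. Of the dorsal arch 1-like cells, those with a *hand2* UMI made up 18.8% in DMSO and 10.8% in YM. *ackr3b* was at 30.5 and 21.4 CPM in them and at 9.29 and 5.83 CPM in the others.

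*cxcl12a* was lower in YM in dorsal arch 2-like cells, with a smaller and less stable difference in dorsal arch 1-like cells. The other crest classes, each taken whole, were close to level. In dorsal arch 2-like cells it had 277 UMIs (119 CPM) in DMSO and 305 UMIs (66.3 CPM) in YM, a log2 ratio of −0.84 (−1.08 to −0.60). Both clusters showed it, at 127 and 67.4 CPM in one and 110 and 64.7 CPM in the other, and so did thinned cells with a UMI of *hoxa2b* or *hoxb2a* (114 and 73.1 CPM) and cells without (128 and 58.5 CPM). The share of positive cells was 21.7% in DMSO and 15.9% in YM. In the same class the 8 ventral arch markers were at 543 CPM in DMSO and 277 CPM in YM, and the 5 glial and early crest markers, of which 1 and 3 were detected, at 3.01 and 9.79 CPM, and their part in the result was not tested. In dorsal arch 1-like cells *cxcl12a* had 249 UMIs (50.7 CPM) and 258 UMIs (38.7 CPM), a log2 ratio of −0.39 (−0.65 to −0.13). Thinned *hand2*-positive cells there held 185 CPM in DMSO and 190 CPM in YM, and *hand2*-negative cells 24.3 and 26.9 CPM. The share of *hand2*-positive cells differed between the libraries, as given above, and its part in the ratio was not tested. The dorsal arch 1-like value also changed sign at a mitochondrial limit of 10% (0.078), with all variable genes (0.22) and at resolution 1.2 (0.32). In frontonasal-like cells the log2 ratio was 0.12 (0.01 to 0.24), in ventral arch-like and posterior arch-like cells 0.01 each, and over all crest-like cells −0.07. Parts of the ventral class differed in direction after thinning. Cells with under 3 intermediate domain genes had −0.47 (−0.69 to −0.24) and the others 0.14 (−0.67 to 0.90). Cells without a *hand2* UMI had 0.49 (0.00 to 0.98) and those with one −0.19 (−0.43 to 0.05).

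*cxcl12b* was higher in YM in ventral arch-like and dorsal arch 1-like cells. The ventral cells held 169 UMIs (31.9 CPM) in DMSO and 303 UMIs (52.6 CPM) in YM, a log2 ratio of 0.72 (0.45 to 1.00), and the positive cells were 7.32% and 13.9% after thinning. The difference was larger in cells with a UMI of *hoxa2b* or *hoxb2a*, where the level was 10.1 and 43.4 CPM, a log2 ratio of 2.11 (1.18 to 3.15), than in cells without, at 0.34 (−0.19 to 0.88). In dorsal arch 1-like cells *cxcl12b* had 379 and 697 UMIs, or 77.1 and 104 CPM, a log2 ratio of 0.44 (0.26 to 0.62). Split by *hand2* after thinning, both intervals reached 0 there. The ratio was 0.24 (−0.02 to 0.49) in *hand2*-negative cells and 0.84 (−0.41 to 2.12) in *hand2*-positive cells. The part of the differing *hand2* share in the class ratio was not tested. In dorsal arch 2-like cells the ratio was 0.24 (0.00 to 0.48), and its clusters differed, with 105 and 102 CPM in one and 72.2 and 112 CPM in the *pax9*-led one. *gata3*-positive-like cells had 242 CPM in DMSO and 207 CPM in YM, a log2 ratio of −0.23 (−0.46 to −0.00). In dorsal arch 2-like cells the 2 ligand genes thus stood on opposite sides of 0.

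*ccl25b* was level in frontonasal-like cells, with 1032 UMIs (274 CPM) in DMSO and 1507 UMIs (269 CPM) in YM, a log2 ratio of −0.03. Its lower YM values in dorsal arch 2-like cells, −1.06 (−1.49 to −0.63), and posterior arch-like cells, −0.82 (−1.39 to −0.26), rest on the few cells given above, whose UMIs are not independent of each other. The dorsal arch 2-like value lay between −2.25 without an upper limit on genes per cell and −0.10 without regression on cell cycle, and the posterior one turned to 0.034 without that upper limit and to 0.19 at a mitochondrial limit of 10%. *ccl44* and *csf1b* had log2 ratios of 0.21 (−0.27 to 0.71) and 0.18 (−0.23 to 0.59) in frontonasal-like cells.

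Receptor and ligand were also counted in the same cells after thinning, beside the number expected if 2 genes were detected independently within a class. *cxcr4a* and *cxcl12b* were found together more often than that product in frontonasal-like cells (18 cells against 8.58 in DMSO and 23 against 8.56 in YM), dorsal arch 1-like cells (57 against 32.2 and 90 against 74.9) and ventral arch-like cells (11 against 2.49 and 23 against 12.5). In *gata3*-positive-like cells the counts were close to the product, 31 against 29.6 and 33 against 33.5. Dorsal arch 2-like cells had 32 against 25.7 and 77 against 66.1, and posterior arch-like cells 1 against 1.78 and 2 against 4.52. In these classes the product lay inside the counting interval of the observed share in each library. *cxcr4a* and *cxcl12a* were found together less often than the product in *gata3*-positive-like cells (8 against 22.0 and 12 against 28.1) and frontonasal-like cells (7 against 14.0 and 7 against 16.0), and more often in dorsal arch 2-like cells (34 against 22.5 and 41 against 36.1). *cxcr4a* and *ackr3b*, the signalling and the scavenging receptor, shared 2 frontonasal-like cells in each library against 7.15 and 7.58. In dorsal arch 1-like cells they shared 0 against 6.63 in DMSO and 10 against 7.13 in YM, and in ventral arch-like cells 0 against 1.61 and 6 against 3.57. Posterior arch-like cells held both ligand genes together in 32 cells against 12.6 and 36 against 17.9. The product also lay inside the interval of the share for *cxcr4a* with *cxcl12b* in YM dorsal arch 1-like cells. It did so for *cxcr4a* with *cxcl12a* in DMSO frontonasal-like and YM dorsal arch 2-like cells. For *cxcr4a* with *ackr3b* it did so in DMSO frontonasal-like and YM dorsal arch 1-like cells and in ventral arch-like cells of both libraries. All these counts describe cells of 1 pool each and carry no test.

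Among 5790 genes, the level of *cxcr4a* over the 17 clusters was most like that of *mecom*, a zinc finger transcription factor gene (Pearson r of 0.88), *mab21l2*, a marker of the dorsal arch 1 list (0.86), and *arl4cb* (0.84). *cxcl12a* was most like *qkia* (0.96), *cnpy4* (0.95) and *ror1* (0.93), and *cxcl12b* most like *vstm4b*, *prrx1a*, a crest mesenchyme homeobox gene (0.95 each), and *sox4a* (0.93, ENSDARG00000004588, the 1 of 2 rows with this symbol that had UMIs in these classes). *csf1b* was most like *cldn11a* (0.93), *col9a2* (0.85) and *col2a1a* (0.83), the last a cartilage and notochord sheath collagen gene. *cxcr4b* was most like *kmt2ca* (0.80), *si:ch211-226m16.2* (0.80) and *cited4a* (0.79), and *ackr3b* most like *pcdh7b* (0.88), *tiparp* (0.88) and *si:ch211-250c4.4* (0.87). *ccl25b* was most like *si:ch1073-459j12.1* (0.90), *zgc:56585* (0.90) and *BX927333.1* (0.89). The clusters share libraries and free RNA, and only *mab21l2*, *cldn11a* and *col9a2* stayed among the 3 nearest genes with another pseudocount and in each library alone. *ccl44* had too few UMIs for this comparison.

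The genome annotation of the files held 74 other genes of the chemokine family and the Csf and Il34 ligands and receptors, chosen by symbol. Of these, 28 had 0 UMIs in the kept cells, 37 had 1 to 49 and 9 had at least 50. The 9 were compared over the crest, blood and epidermal-like classes only. Pigment-like cells, muscle-like cells and the cluster without a name were not compared. *csf1a*, the duplicate of *csf1b*, was also highest in frontonasal-like cells, at 65.9 CPM in DMSO and 64.4 CPM in YM, but unlike *csf1b* had 34 and 61 UMIs in ventral arch-like cells. *cxcl18b*, a zebrafish chemokine gene induced in inflammation, was at 7.56 CPM in DMSO and 12.9 CPM in YM crest-like cells, a log2 ratio of 0.77 (0.50 to 1.05), and its YM value was the higher one in all 6 crest classes. *cxcl14* was highest in epidermal-like cells, at 91.9 and 101 CPM. *ccl39.7* was at 2.23 and 2.54 CPM in crest-like cells. Among the classes compared, the other 5 were highest in blood cells. *ccr9a*, a receptor for Ccl25, was at 63.6 and 157 CPM in neutrophil-like and 54.6 and 39.8 CPM in macrophage-like cells, with 0 UMIs in crest-like cells. *cxcr3.2* was at 223 and 196 CPM, *ccl34a.4* at 987 and 1087 CPM and *csf1ra*, the Csf1 receptor gene, at 79.8 and 138 CPM in macrophage-like cells, and *il34*, the other Csf1r ligand gene, was at 198 and 341 CPM in neutrophil-like cells.

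Of 10 genes for the Gi subunits, arrestins and receptor kinases that act on chemokine receptors, 7 could be read in crest-like cells. Their log2 ratios lay between −0.10 and 0.16, and the interval of each reached 0. In dorsal arch 1-like cells 5 could be read, with log2 ratios from −0.51 to 0.52, and in ventral arch-like cells 5, from −0.08 to 0.27, each interval again reaching 0. *grk3*, a receptor kinase gene with too few UMIs to be read there, had 0 UMIs in DMSO and 6 in YM ventral arch-like cells.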

How the data were processed

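scRNA-seq of sorted cranial NCCs was used from 1 DMSO and 1 YM library, grouped by their labels. The files, as deposited, hold unnormalized UMI counts of each gene in every barcode, from Cell Ranger run by the authors on GRCz11, with no cell filter. The file header names Cell Ranger 4 and the submitters' processing notes version 5.0.1, and the labels and the methods give different DMSO concentrations. The libraries held 25340682 (DMSO) and 33649382 (YM) UMIs. Cells were called in Python 3.11.15 with the rules of Cell Ranger, rebuilt, which placed 88.8% and 91.3% of the UMIs in called cells, and filtered by the limits of the methods (200 to 3000 genes for DMSO, 200 to 3500 for YM, under 5% mitochondrial UMIs). Doublets were kept, since the methods name no removal and Scrublet marked 1 and 2 cells, too few to have worked. Clustering was joint for both libraries, in Seurat 5.3.0 (2000 variable genes, 30 components, resolution 0.8, S and G2M scores regressed out), with 176 genes, the members among them, kept out. A cluster was named from at least 3 of its fixed markers that were raised at least 2-fold.

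UMIs were summed per class and library. Intervals are exact Poisson (levels), conditional binomial (ratios) and Clopper-Pearson (shares) at 95%. The limit beside a count of 0 is 3 counts of the class total for a level, and the upper Clopper-Pearson bound for a share. The bound of 24.4 CPM in DMSO erythroid-like cells is instead the upper end of the exact Poisson interval. Shares use cells thinned to 3500 UMIs, so 395 shallower cells of DMSO and 372 of YM are missing from them. Ratios were read at 40 UMIs or more, and likeness over clusters used log2(CPM + 10) and genes with at least 500 UMIs. The ratio and interval code was run on simulated Poisson counts with known folds. Such counts follow the model of the intervals and hold no spread between pools or cells, so the run cannot judge the intervals against that spread. Alternatives changed the calling, filters, doublets, clustering, scaling (TMM, edgeR 4.0.16), thinning, free RNA and class. The text names all 8 members, other family genes with at least 50 UMIs, and for each member with at least 200 UMIs the 3 most alike genes. Genes that describe ventral cells with *cxcr4a* were chosen after their values were seen. The members, lists and classes were chosen with earlier results of these data known.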

Additional observations from a re-analysis of the deposited data

Results flagged for a closer look

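The Cxcl12 ligand genes stood on different sides of 0 in different crest classes under the same comparison. Their counting intervals were clear of 0 on each side, but some only by a small margin. The difference between classes was not tested, since each condition has 1 library. *cxcl12a* had a log2 ratio of YM to DMSO of 0.12 in frontonasal-like cells against −0.39 in dorsal arch 1-like and −0.84 in dorsal arch 2-like cells. The dorsal arch 1-like value changed sign under some alternatives of the processing. Split by *hand2* after thinning, that class was not lower in YM, at 185 and 190 CPM with *hand2* and 24.3 and 26.9 CPM without. *cxcl12b* had 0.44 in dorsal arch 1-like, 0.24 in dorsal arch 2-like and 0.72 in ventral arch-like cells against −0.23 in the *gata3*-positive class. The lower bound was 0.008 for *cxcl12a* in frontonasal-like cells and 0.0013 for *cxcl12b* in dorsal arch 2-like cells. For *cxcl12b* in the *gata3*-positive class the upper bound was −0.0047. TMM scaling raised ratios in that class by 0.054, more than the distance of this bound from 0. It also raised those of frontonasal-like and dorsal arch 2-like cells, there away from 0.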

How the results depend on the processing

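No paired analysis was possible because each condition has 1 library and no result comes from a test. Of 645 log2 ratios recomputed under the alternatives, 578 moved by less than their counting interval, 57 by more, and 10 changed sign. TMM scaling, which shifted ratios by 0.03 to 0.08, moved 0 of 40, and subtracting free RNA 0. The estimated free shares are so small that this subtraction could move ratios only slightly. The *cxcr4a* ratio in ventral arch-like cells was 2.23 with the order-of-magnitude rule alone, 2.14 without an upper limit on genes and 2.28 with all variable genes, and in dorsal arch 1-like cells 0.39 at a mitochondrial limit of 10%, 0.30 with all variable genes and 0.24 at resolution 1.2. The *cxcl12b* ratio in ventral arch-like cells was 1.12 without an upper limit on genes and 1.03 in cells with a *hand2* UMI, an alternative chosen after seeing the data. *cxcl12a* in dorsal arch 2-like cells was −0.48 at resolution 0.3. *ccl25b* in dorsal arch 2-like cells was −2.22 with 3000 genes as the limit in both libraries, −2.25 without an upper limit, −2.10 at a mitochondrial limit of 10%, −1.52 as a mean over cells and −0.10 without cell cycle regression.

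Signs changed for *ccl25b* in posterior arch-like cells without an upper limit on genes (0.034) and at a mitochondrial limit of 10% (0.19), for *cxcl12a* in dorsal arch 1-like cells at that mitochondrial limit (0.078), with all variable genes (0.22) and at resolution 1.2 (0.32), and for *ackr3b* there at resolution 1.2 (0.85). Resolution 1.2 and the mitochondrial limit of 10% left part of the dorsal arch 1 cells unnamed, and resolution 0.3 gave no ventral class. Pooled over all kept and over all crest-like cells, in place of a class, the ratios were 0.58 and 0.58 for *cxcr4a*, 0.22 and 0.21 for *cxcl12b* (against the *gata3*-positive-like direction), −0.059 and −0.074 for *cxcl12a* (against the frontonasal-like direction) and −0.0082 and −0.023 for *ccl25b*. Otherwise the cause was not tested.

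In ventral arch-like cells the share of genes past 1.5-fold higher was 4.92% at a minimum of 20 UMIs and 1.45% at 100, and past 1.5-fold lower 6.26% and 1.47%. The share of ventral cells with *cxcr4a* was 8.22% and 27.1% unthinned and 2.24% and 9.45% when thinned to 2000 UMIs. Of the sets of most alike genes, 13 of 21 changed. Leaving out the DMSO cell with most haemoglobin UMIs, also chosen after seeing the data, moved 0 of 13 values. Depth limits *ccl44*, *csf1b* and the blood classes to few UMIs.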
